A study of Mus musculus with 15 samples.

Results

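The Stag1-/- clone was compared with wild-type cells in 6 of the 15 polyA RNA-seq libraries of the series, 3 of Stag1-/- cells and 3 of wild-type cells, chosen by the genotype and siRNA in their titles. All were v6.5 mouse embryonic stem cells (mESCs), a male line grown on gelatin, and in all 6 the cells received 50 nM siGLO, a transfection control that targets no gene, and were harvested after 48 h. The Stag1-/- cells carried the allele Stag1 em1Jdow, a homozygous deletion in exon 7 of Stag1, and the 3 libraries were replicates of 1 CRISPR clone, so an effect of the genotype and a property of that clone cannot be told apart. Nothing says that the replicates came from separate derivations, and the p-values measure only the spread between these libraries. For direct comparisons, 3 libraries of 1 Stag2-/- clone (allele Stag2 em2Jdow, a homozygous deletion from exon 7 to 9) treated with siGLO and 3 of wild-type cells treated with 50 nM siStag1 for the same 48 h were used, which leaves 3 libraries of Stag2-/- cells with siStag1 that entered only the shared model and a check of chromosome 8. The 6 libraries held 17126806 to 19070126 reads counted on genes.

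Cohesin is a ring of SMC1A, SMC3 and RAD21 that holds sister chromatids together and forms chromatin loops, and it carries either STAG1 or STAG2 as a further subunit. mESCs come from the inner cell mass and grow under LIF in a pluripotent state. Some cells in such cultures drift toward primitive endoderm, the lineage of the yolk sac that is set by GATA6, GATA4 and SOX17 and that lays down basement membrane. Others pass briefly through a state with transcripts of the 2-cell embryo, which is driven by the transcription factor DUX and marked by the Zscan4 genes. Actin genes with CArG boxes in their promoters are targets of serum response factor (SRF), which is activated when monomeric actin is used up by filament assembly.

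The exon that carries the deletion lies at chr9:100786492-100786696 on the + strand of mm10 and has 205 bases in the main GENCODE transcript of Stag1. It is printed here because the deletion leaves the count of the gene almost untouched. Capitals mark codons 186 to 223 of that transcript, the only in-frame stretch of 38 codons in the exon that starts with an isoleucine codon and ends with a threonine codon, which are the end residues that the methods of the study name for a deletion of 114 bases. The study numbers these residues differently, and the stretch was placed by its length and end residues, not from a sequenced allele, so the capitals mark a likely position.
Stag1 exon 7: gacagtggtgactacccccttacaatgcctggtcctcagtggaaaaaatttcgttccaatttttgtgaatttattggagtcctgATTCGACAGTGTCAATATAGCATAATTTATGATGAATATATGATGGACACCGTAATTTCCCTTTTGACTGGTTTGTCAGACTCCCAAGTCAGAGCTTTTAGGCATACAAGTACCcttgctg
Because 114 is a multiple of 3, such a deletion keeps the reading frame. Stag1 had 2288, 2137 and 2012 normalized counts in the wild-type libraries and 1826, 2368 and 1875 in the Stag1-/- libraries, where a normalized count is the deposited count scaled to a common library size. The ranges overlapped and the transcript did not pass the test (log2 fold change -0.09 ± 0.13 (SE), adjusted p = 0.728, two-sided exact permutation test p = 0.6, where 3 against 3 cannot go below 0.1), so the count of Stag1 does not check the genotype label. The study reports that STAG1 protein was not detectable in this clone by western blot, and protein was not analysed here. Stag2, which codes for the other STAG subunit, had 2329, 2334 and 2329 and 1634, 2452 and 2128 normalized counts (log2 fold change -0.17, permutation p = 0.4).

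With edgeR's quasi-likelihood test at an adjusted p under 0.1, 2907 of 14508 tested genes (20%) differed, of which 1466 (10.1%) rose and 1441 (9.93%) fell in Stag1-/- cells. Same-numbered libraries deviated from their group means together, and with the replicate number as a block 4443 genes differed (30.6%), 2218 of them higher (15.3%) and 2225 lower (15.3%). The numbers of rises and falls were close, but the largest changes were falls: 77 genes fell and 10 rose by more than 8-fold, against 449 and 379 by more than 2-fold. The median log2 fold change over all tested genes was -0.01. The largest falls among genes with a mean of at least 50 normalized counts and no overlap between groups were Klb (-6.11), Hkdc1 (-4.84), Zscan4d (-4.74), Cubn (-4.48), Zscan4a (-4.34), Srgn (-4.31), Zscan4c (-4.24), Sox17 (-4.10), Ctsh (-4.01) and 9930013L23Rik (-3.96) on the log2 scale. They hold endoderm genes, such as Cubn, which codes for an endocytic receptor of visceral endoderm, and Sox17, and 3 genes of the 2-cell-like state. Among the largest rises were Acta1 (3.20), Synpo2l (3.04), Rhox6 (2.86), Myl9 (2.68), Irgm1 (2.65), 3830417A13Rik (2.65), Tagln (2.53), Oasl2 (2.48) and Krt7 (2.43), of which Acta1, Myl9, Tagln and Synpo2l code for contractile or actin-binding proteins. Klb, the coreceptor for endocrine FGFs, was near the limit of detection in Stag1-/- cells, with 5 reads over the 3 libraries against 363 in wild type, a 74.1-fold difference with a 95% counting interval of 31.5 to 229.5.

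Both groups carried the transcripts that define mESCs. Pou5f1, which codes for OCT4, had 21535, 19699.9 and 19008 normalized counts in wild type and 16810.2, 14387 and 16035 in Stag1-/- cells, and Sox2 had 8869.8, 9431 and 9473 and 10348, 9416 and 10413. The 10 fibroblast markers summed to 383 to 731 normalized counts in wild type and 610.4 to 742 in Stag1-/- libraries. Of the 7 tested, none was called. With the block, 2 rose and 1 fell (28.6% and 14.3%, against 15.3% of all genes each way). The sums of markers of primitive endoderm, the 2-cell-like state and trophoblast did not overlap between groups, and those of neural cells did. They came to 89680.3 to 93263 normalized counts in wild type and 28334 to 37610.5 in Stag1-/- libraries for primitive endoderm, 463 to 1297 and 23.4 to 57.0 for the 2-cell-like state, 4445 to 5783 and 7793 to 11769 for trophoblast, and 9705 to 11416 and 11139.6 to 12018 for neural cells. Most of the trophoblast difference lay in Krt8 and Krt18, keratins that simple epithelia share. Their means were 1717 and 906 in wild type and 4504 and 2893 in Stag1-/- cells. The part of these cell types in other results was not tested.

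**Figure D1:**
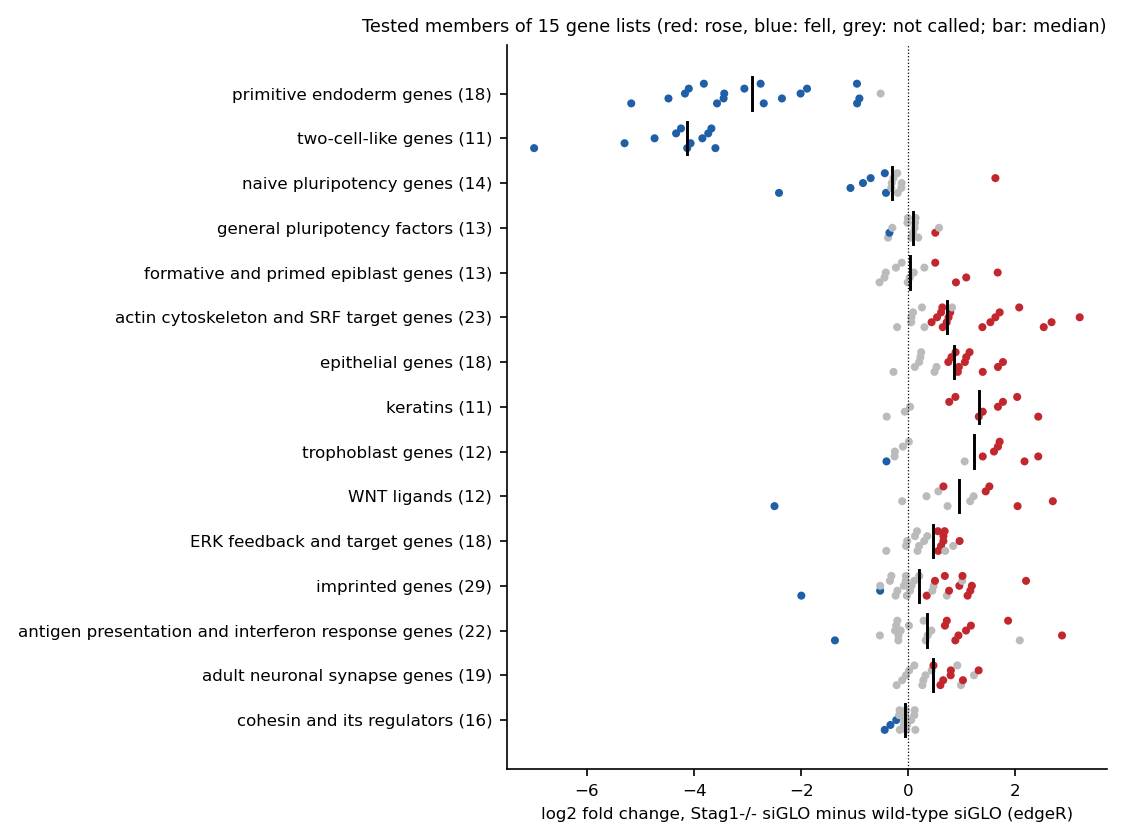
Log2 fold change (x axis, Stag1-/- siGLO minus wild-type siGLO, edgeR) of every tested member of 15 gene lists, 1 dot per gene, with the number tested in parentheses and the median as a bar. The primitive endoderm and 2-cell-like lists have medians of -2.91 and -4.13, and no member of either lies to the right of 0, while the cohesin list stays near 0.

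Primitive endoderm genes fell almost without exception. Of 18 tested members of 19 listed, 17 fell and 0 rose, with a median log2 fold change of -2.91 against a share of 9.93% of all genes that fell. The transcription factors that set the lineage were among them. Gata4 had 894, 895 and 999.8 normalized counts in the wild-type libraries and 191, 117 and 122 in the Stag1-/- libraries (log2 fold change -2.70 ± 0.18 (SE), adjusted p = 1.89e-07). Gata6 went from 496, 426 and 545 to 65.0, 38 and 31.6 (log2 fold change -3.45 ± 0.38 (SE), adjusted p = 1.67e-05) and Sox17 from 261, 259 and 268 to 9.84, 18.5 and 17.2 (log2 fold change -4.10 ± 0.37 (SE), adjusted p = 2.67e-06). Every Stag1-/- library lay under every wild-type library for these 3 genes, and among the clone's libraries replicate 1 was the highest for Gata4 and Gata6 and the lowest for Sox17. The factors downstream of them fell as well: Foxa2 (-3.06) and Hnf4a (-5.17), with Hnf4a down to 3.94, 1.95 and 0 normalized counts from 59.8, 102 and 59.0. The effectors included Cubn, with 5152, 4721 and 4660.3 in wild type and 334, 141 and 178 in Stag1-/- cells (log2 fold change -4.48 ± 0.30 (SE), adjusted p = 1.86e-07). The remaining member, Lrp2, which codes for megalin, the partner of cubilin in endocytosis, was at 5733, 4934 and 3713 and 3771, 3815 and 2471 (adjusted p = 0.124, or 0.0645 with the replicate block). Sox7 (-3.44) and the receptor gene Pdgfra (-3.82), which mark the lineage, fell too, as did the endocytic adaptor gene Dab2 (-3.57). Lrp2, Pdgfra and Dab2 were named after their values were seen. In bulk RNA, fewer endoderm cells and less RNA per cell cannot be told apart, and the share of such cells was not measured.

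Basement membrane genes moved both ways. Of 15 tested, 6 fell (40%, against 9.93% of all genes) and 3 rose (20%, against 10.1%), with a median of 0.04. The chains that primitive endoderm makes fell: Col4a1, a type IV collagen chain, had 13554, 13470.4 and 13725 normalized counts in wild type and 2495, 1821 and 1710.3 in Stag1-/- cells, and Col4a2, its neighbour on chromosome 8 (-2.36), Lama1 (-1.89), Lamb1 (-0.91), Lamc1 (-0.96) and the matrix glycoprotein gene Sparc (-0.96) went the same way. All 6 genes that fell also belong, by the list used, to primitive endoderm, so these counts repeat part of that program. The 3 that rose were Lama5 (0.62), Nid2 (0.40) and Agrn (0.26), chains and linkers of other epithelia. These 3 and Lamc1 were named after their values were seen. Over the 9 laminin genes tested, 4 fell and 3 rose. Lamb3, a chain of the laminin under stratified epithelia, rose from 23.4, 27.5 and 31.9 to 65.9, 65.2 and 37.1 normalized counts, and Lama3, which pairs with it there, fell (-1.07). Over the collagens, 4 rose and 5 fell of 34 tested genes (11.8% and 14.7%). With the replicate block, 8 rose and 5 fell of the collagens (23.5% and 14.7%, against 15.3% of all genes each way).

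All 11 tested genes of the 2-cell-like state fell, with a median log2 fold change of -4.13 (-4.07 with the gene at 0 set to its bound), and the other 7 of 18 did not pass the filter on low counts. The 11 passed it through the wild-type or other libraries in which they were higher, so their count and median are a description. Zscan4c, which marks the state, had 227, 68.1 and 87.1 normalized counts in wild type and 3.94, 2.92 and 12.7 in Stag1-/- cells (log2 fold change -4.24 ± 0.58 (SE), adjusted p = 0.000126). Zscan4d had 218, 66.1 and 78.4 and 2.95, 0 and 9.94, and Zscan4a 232, 92.5 and 86.1 and 4.92, 8.76 and 6.33. Wild-type replicate 1 was the highest library for all 3, by more than 2-fold for Zscan4c, and the lowest wild-type library was still above the highest Stag1-/- library. The deubiquitinase gene Usp17le, from a tandem array, fell too (-4.07, from 62.6, 33.6 and 36.8 to 1.97, 1.95 and 3.62). Dux, which codes for the factor that switches these genes on, had 49 reads in the wild-type libraries together and 0 in the Stag1-/- libraries, at least 5.47-fold lower when 3 reads per library are taken as the limit of detection. It was named after its values were seen. Zscan4 and Usp17l genes are near-identical copies, and how the counting split reads between them is not given in the sources used here, so values of single members are uncertain.

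The general pluripotency factors changed little, and several naive genes fell. Of the 13 general factors, 1 rose and 1 fell (7.69% each, against 10.1% of all genes that rose and 9.93% that fell). Lin28a, an RNA-binding protein gene, rose (log2 fold change 0.51 ± 0.12 (SE), adjusted p = 0.0126), Pou5f1 fell slightly (log2 fold change -0.35 ± 0.13 (SE), adjusted p = 0.0831), and Nanog lay at 5600.3, 4927 and 5015 in wild type and 3697, 3569 and 4696 in Stag1-/- cells, where the ranges did not overlap but the test was not passed (adjusted p = 0.513, or 0.0414 when the 6 libraries compared were fitted alone). Of the 14 naive genes, 6 fell and 1 rose (42.9% and 7.14%, median -0.31). The largest fall was Tbx3, a T-box factor of naive cells and of early endoderm, from 2179, 2010.0 and 2239 to 437, 352 and 417 normalized counts (log2 fold change -2.41 ± 0.13 (SE), adjusted p = 2.68e-08). Prdm14, a repressor of differentiation and DNA methylation, fell from 470.3, 419 and 438 to 217, 184 and 228, and Tcl1 from 872, 686 and 886 to 507, 368 and 485. Tfcp2l1 fell by less (-0.44), while Esrrb (-0.28) and Klf4 (-0.31) did not pass the test (Klf4 fell with the block, adjusted p = 0.0757). Against the other naive genes, Dppa3, the maternal factor STELLA, rose from 147, 162 and 141 to 345, 468 and 576 (log2 fold change 1.63 ± 0.18 (SE), adjusted p = 1.6e-05). Under the block, 2 rose and 1 fell of the general factors (15.4% and 7.69%, against 15.3% of all genes each way).

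Genes of the formative and primed epiblast, the next state in development, gave 4 rises and 0 falls among 13 tested. That is 30.8% and 0%, against 10.1% of all genes that rose and 9.93% that fell. Pou3f1, which codes for OCT6, rose from 381, 341 and 329 to 1419, 990.0 and 939 normalized counts (log2 fold change 1.67 ± 0.25 (SE), adjusted p = 0.000313). The de novo DNA methyltransferase gene Dnmt3b rose from 5791, 5025 and 4212 to 10764, 9082 and 8028, the epithelial factor gene Grhl2 by 1.08 and Otx2 by 0.50 on the log2 scale. Fgf5, the classical marker of the primed epiblast, had 10.3, 11.2 and 7.74 in wild type and 9.84, 8.76 and 6.33 in Stag1-/- cells. Of 8 writers and erasers of DNA methylation, Dnmt3b was the member that rose (12.5%), and Tet2 (-0.54) and Uhrf1 (-0.21) fell (25%). Of 14 primitive streak and mesoderm genes 2 rose (14.3%, against 10.1% of all genes) and 0 fell. T, which codes for Brachyury, had 9.35, 11.2 and 6.78 and 16.7, 15.6 and 29.8 normalized counts. With the number as a block, 4 rose and 1 fell of the formative and primed genes (30.8% and 7.69%). Of the DNA methylation genes 2 rose and 2 fell (25% each), and of the streak and mesoderm genes 3 and 2 (21.4% and 14.3%). The block called 15.3% of all genes each way.

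Actin and its partners rose broadly. Of 23 tested actin cytoskeleton and SRF target genes, 16 rose and 0 fell (median 0.72), against 10.1% of all genes that rose. Acta1, skeletal muscle actin, had 31.8, 62.0 and 62.9 normalized counts in wild type and 506, 517 and 419 in Stag1-/- cells (log2 fold change 3.20 ± 0.43 (SE), adjusted p = 0.000119). Myl9, a regulatory light chain of myosin II, went from 69.2, 67.1 and 44.5 to 401, 377 and 381 (log2 fold change 2.68 ± 0.22 (SE), adjusted p = 1.2e-06), and Tagln, the actin-binding protein transgelin, from 283, 433 and 354 to 2302, 2049 and 1831 (log2 fold change 2.53 ± 0.40 (SE), adjusted p = 0.00046). The groups did not overlap for any of the 3. Acta2, smooth muscle actin, was more scattered, with 125, 145 and 223 and 800.2, 562 and 714 (adjusted p = 0.09). Vcl, which codes for vinculin of focal adhesions, rose by 0.44 with tight replicates, from 2604, 2732 and 2697 to 3651, 3836 and 3381. SRF itself was part of the rise: Srf had 1404, 1449.8 and 1189 and 2479, 2072 and 1770.0 (log2 fold change 0.64 ± 0.12 (SE), adjusted p = 0.00168). Actc1, cardiac actin, lay at 2.8, 5.08 and 8.71 and 11.8, 6.81 and 10.8, and its ranges overlapped. Srf, Actc1 and Cnn2 were named after their values were seen, for their promoters.

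The CArG box is the 10-base palindromic site bound by SRF, and the same letters were searched on both strands of RefSeq promoters (GRCm38.p6, windows of 300 bases around each start). A box was found in 10 of 24 promoters of the actin and SRF list and in 535 of 32851 promoters of all genes (1.63%). The list was drawn up in part from known SRF targets. Among promoters of genes that rose, 37 of 1462 (2.53%) held a box, against 11 of 1320 (0.833%) of genes that fell and 1.28% of the 13545 promoters of tested genes. The 37 include 9 promoters of the actin and SRF list. The promoters of 4 genes that rose, and of Actc1, which did not pass the test, are printed with their boxes in capitals. They lie at chr8:123894726-123895025 (Acta1, - strand), chr2:156775214-156775513 (Myl9, + strand), chr10:79988350-79988649 (Cnn2, + strand), chr17:46556113-46556412 (Srf, - strand), chr2:114052826-114053125 (Actc1, - strand) of GRCm38.p6.
Acta1: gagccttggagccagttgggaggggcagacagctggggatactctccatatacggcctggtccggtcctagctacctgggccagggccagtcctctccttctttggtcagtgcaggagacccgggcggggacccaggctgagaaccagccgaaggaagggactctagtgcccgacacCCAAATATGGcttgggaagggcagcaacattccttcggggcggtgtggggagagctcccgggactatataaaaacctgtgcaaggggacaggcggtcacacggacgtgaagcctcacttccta
Myl9: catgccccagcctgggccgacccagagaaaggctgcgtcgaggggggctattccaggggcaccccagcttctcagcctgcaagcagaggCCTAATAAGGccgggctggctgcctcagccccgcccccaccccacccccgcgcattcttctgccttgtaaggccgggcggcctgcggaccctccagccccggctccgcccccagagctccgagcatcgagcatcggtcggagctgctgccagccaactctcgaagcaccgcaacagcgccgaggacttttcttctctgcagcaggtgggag
Cnn2: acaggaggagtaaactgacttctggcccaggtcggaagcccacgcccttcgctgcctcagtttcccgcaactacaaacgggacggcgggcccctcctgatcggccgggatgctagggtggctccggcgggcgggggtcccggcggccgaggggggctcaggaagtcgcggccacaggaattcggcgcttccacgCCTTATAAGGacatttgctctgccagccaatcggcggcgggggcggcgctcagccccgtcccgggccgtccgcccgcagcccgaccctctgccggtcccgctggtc
Srf: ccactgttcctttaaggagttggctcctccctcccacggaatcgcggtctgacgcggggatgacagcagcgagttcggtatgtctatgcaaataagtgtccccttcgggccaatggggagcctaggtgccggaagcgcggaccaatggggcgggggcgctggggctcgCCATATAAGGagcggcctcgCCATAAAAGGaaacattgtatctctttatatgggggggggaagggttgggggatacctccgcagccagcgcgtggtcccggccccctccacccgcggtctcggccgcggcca
Actc1: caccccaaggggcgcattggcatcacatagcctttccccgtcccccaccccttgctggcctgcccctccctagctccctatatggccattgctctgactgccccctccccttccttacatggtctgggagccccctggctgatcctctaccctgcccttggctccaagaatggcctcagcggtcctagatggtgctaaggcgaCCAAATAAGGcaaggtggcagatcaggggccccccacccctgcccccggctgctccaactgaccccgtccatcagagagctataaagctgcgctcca
In the Acta1 promoter the box starts 73 bases before the transcription start, that of Cnn2 56 and that of Actc1 47, while Srf has 2 boxes. The 4 printed genes that rose had log2 fold changes from 0.64 (Srf) to 3.20 (Acta1), and Actc1 had 0.82. Cnn2, calponin 2, had 1069, 1249 and 1099 normalized counts in wild type and 3813, 3862 and 2881 in Stag1-/- cells.

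Epithelial genes were higher in Stag1-/- cells. Of 18 tested, 11 rose, against 10.1% of all genes, and 0 fell (median 0.85). Krt8, the first keratin of the embryo, had 1513, 2166 and 1473 normalized counts in wild type and 5256, 5248 and 3008 in Stag1-/- cells, where replicate 3 was the lowest of the clone (log2 fold change 1.39 ± 0.31 (SE), adjusted p = 0.00621). Its filament partner Krt18 went from 801, 1156 and 761 to 3331, 3277 and 2072 and Krt19 from 134, 253 and 214 to 624, 867 and 554. Over the keratin family, 8 of 11 tested genes rose and 0 fell (median 1.32), among them Krt7 (2.43) and Krt20 (2.03), and the other 37 keratins did not pass the filter. Tight junction genes gave a like count, with 5 of 10 claudins higher and 0 lower. Cldn6, the claudin typical of mESCs, rose from 1109, 1319 and 1159 to 2686, 2685 and 2561, as did Cldn3 (1.06), Cldn7 (0.95) and Cldn9 (0.92). Epcam rose by 0.88 on the log2 scale, but Cdh1, E-cadherin, was at 9498, 9955 and 10263 and 11664, 12019 and 10540.3 and did not pass the test. On the mesenchymal side, Vim, vimentin, fell (-1.04) together with Zeb1 (-1.03), a repressor of epithelial genes, while Tgfb2 (1.61) and Mmp14 (0.79) rose, and 2 of 14 rose and 3 fell in all (14.3% and 21.4%, against 10.1% of all genes that rose and 9.93% that fell). With the replicate block, 5 rose and 1 fell of the claudins (50% and 10%, against 15.3% of all genes each way).

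Trophoblast genes gave 6 rises (50%, against 10.1% of all genes) and 1 fall (8.33%, against 9.93%) among 12 tested (median 1.22), and 3 of the rises were the keratins Krt7, Krt8 and Krt18, which simple epithelia share. Hand1, a factor of trophoblast giant cells and mesoderm, had 18.7, 27.5 and 11.6 normalized counts in wild type and 100.4, 84.7 and 75.9 in Stag1-/- cells (log2 fold change 2.17 ± 0.51 (SE), adjusted p = 0.00904). Cdx2, which sets the trophoblast fate, rose from 12.2, 7.12 and 13.6 to 30.5, 22.4 and 55.1 (adjusted p = 0.0937) and was low in all 6 libraries. Gata3 had 26.2, 29.5 and 27.1 and 64.0, 76.9 and 31.6 and passed the test with the replicate block (adjusted p = 0.0733 against 0.153), and Elf5, a further defining gene, did not pass the filter on low counts.

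**Figure D2:**
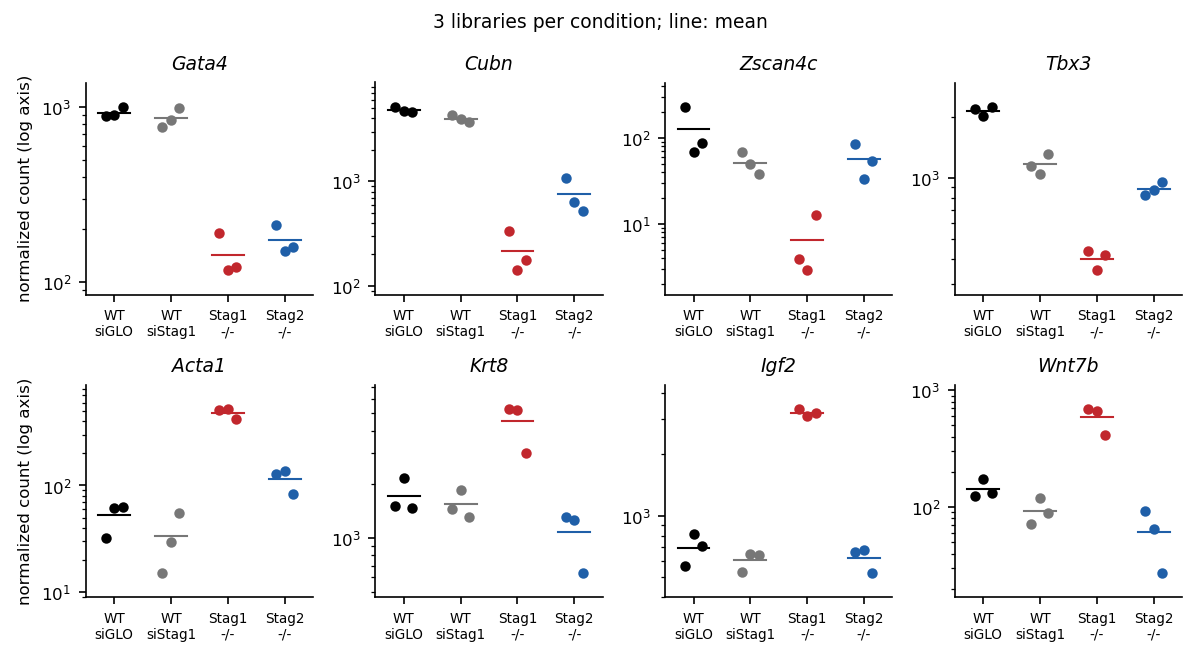
Normalized count (y axis, log scale) of 8 genes in each of the 3 libraries of 4 conditions, with the mean as a line. The Stag1-/- libraries lie apart from both wild-type groups for all 8 genes. For Gata4 the Stag2-/- libraries sit beside them, for Krt8, Igf2 and Wnt7b they lie beside wild type or lower.

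FGF signalling, which drives the choice of primitive endoderm through ERK, changed gene by gene. Of 19 ligands, receptors and coreceptors, 5 rose and 6 fell (26.3% and 31.6%, against 10.1% of all genes that rose and 9.93% that fell). Among ligands, Fgf4, the main FGF of mESCs, fell by a small amount (log2 fold change -0.42 ± 0.12 (SE), adjusted p = 0.0277), Fgf10 fell from 169, 186 and 181 to 32.5, 43.8 and 34.4 normalized counts and Fgf3 from 71.1, 93.5 and 93.9 to 22.6, 31.2 and 25.3, while Fgf18 rose from 19.6, 12.2 and 12.6 to 74.8, 91.5 and 76.8. Fgfr1, the main receptor of mESCs, was at 1782, 2045 and 2163 and 2294, 2004 and 2255 and did not pass the test. The feedback genes that ERK activity induces leaned upward: 7 of 18 rose (38.9%) and 0 fell (median 0.46), and 12 rose with the replicate block (66.7%, against 15.3% of all genes). Dusp6, an ERK phosphatase, went from 1018, 1183 and 845 to 1578, 1558 and 1664 (log2 fold change 0.66 ± 0.13 (SE), adjusted p = 0.0025), Spry1 rose by 0.66, Dusp5 by 0.68, Egr1 by 0.55 and Spred3 by 0.96. Spry4 did not follow, with 1636, 2199 and 1612 in wild type and 1434, 1718 and 2139.7 in Stag1-/- cells.

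Among secreted signals, 5 of 12 WNT ligand genes tested rose and 1 fell (41.7% and 8.33%, against 10.1% of all genes that rose and 9.93% that fell), with a median of 0.95. Wnt7b went from 123, 174 and 132 to 684, 665 and 418 normalized counts (log2 fold change 2.04 ± 0.39 (SE), adjusted p = 0.00227) and Wnt7a from 3.74, 13.2 and 7.74 to 41.3, 70.1 and 49.7, with Wnt4 higher by 1.52. Wnt11, an endoderm and mesoderm ligand, fell from 53.3, 55.9 and 75.5 to 11.8, 9.73 and 10.8. Among 12 target genes, 0 rose and 1 fell (8.33%), and Axin2, the common readout, had 391, 339 and 358 and 387, 275 and 264 (2 rose and 2 fell with the block, 16.7% each against 15.3% of all genes each way). The one that fell was the WNT inhibitor gene Dkk1 (72.0, 54.9 and 79.4 to 15.7, 5.84 and 4.52). Of 20 TGF-beta superfamily ligands, 7 rose and 4 fell (35% and 20%), with Bmp8b (2.14) and Tgfb3 (1.93) up and Bmp6 (-1.55) down. The Nodal inhibitors Lefty1 (3033, 1902 and 2251 to 5579, 4409.9 and 5134) and Lefty2 (1962, 1470.2 and 1478 to 3385, 3299 and 3489) rose together, while Nodal had 1048, 1005 and 859 and 1054, 910.2 and 1044. Inhbb, an activin subunit, fell (-1.49). In the BMP pathway Bmp4 rose (0.92) and Id2, an inhibitor of bHLH factors, rose from 241, 244 and 200.3 to 645, 692 and 788, but Id1 (0.31) and Id3 (0.93) did not pass the test (Id3 rose with the block, adjusted p = 0.0182).

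Of 18 retinoic acid genes 3 rose and 4 fell (16.7% and 22.2%, against 10.1% of all genes that rose and 9.93% that fell). Stra6, the receptor that takes up retinol, fell from 48.6, 41.7 and 58.1 to 14.8, 8.76 and 12.7 normalized counts. In the Notch pathway 4 of 17 genes rose and 1 fell (23.5% and 5.88%), with the ligand genes Dll3 (1.12) and Jag2 (0.80) and the receptor gene Notch2 (0.55) higher and the target Hes1 at 342, 409 and 506 and 268, 349 and 479. Hedgehog effectors Gli1 (629, 589.7 and 705 to 1455, 1245 and 1615) and Gli3 (0.50) rose. The LIF pathway, on which mESCs depend, showed 2 rises (18.2%) and 0 falls of 11: the receptor gene Lifr was at 2471, 2369 and 2245 and 2296, 2321 and 2218, and the kinase genes Pim1 (0.61) and Jak2 (0.56) rose. YAP targets gave 3 rises and 1 fall of 8 (37.5% and 12.5%), but Ctgf (-0.10) and Cyr61 (0.36), the usual readouts, did not pass the test (Cyr61 rose with the block, adjusted p = 0.0129), and Ankrd1 fell (-1.44). Under the block, 6 rose and 2 fell of the Notch genes, 3 rose and 1 fell of the LIF pathway genes and 5 rose and 1 fell of the YAP targets, where 15.3% of all genes went each way.

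Imprinted genes, expressed from 1 parental allele and often regulators of growth, gave 10 rises and 2 falls of 29 (34.5% and 6.90%, against 10.1% of all genes that rose and 9.93% that fell, median 0.21). Igf2, the fetal growth factor, had 565, 817 and 709 normalized counts in wild type and 3324, 3092 and 3192 in Stag1-/- cells (log2 fold change 2.20 ± 0.15 (SE), adjusted p = 1.86e-07), and the groups did not overlap. H19, which shares a CTCF-bound control region with Igf2, had 176, 195 and 166 and 161, 133 and 225, with overlapping ranges. Cdkn1c, a growth inhibitor, rose from 1065, 697 and 621 to 2094, 1760.1 and 1473, the neuronatin gene Nnat from 185, 193 and 227 to 467, 422 and 493, and Dlk1 from 126, 74.2 and 96.8 to 209, 165 and 268. Mest went the other way, from 1799, 1557 and 1409 to 335, 390.4 and 467 (log2 fold change -2.0 ± 0.17 (SE), adjusted p = 1.19e-06). In the insulin-like growth factor system 3 of 13 genes rose and 1 fell (23.1% and 7.69%). With the block 4 rose and 3 fell (30.8% and 23.1%, against 15.3% of all genes each way). The rises without it were Igf2, Igfbp4 (1.55) and Igfbp3 (0.84), of which the last pair code for proteins that bind the ligand. These counts do not separate the parental alleles.

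Of 22 antigen presentation and interferon response genes, 8 rose and 1 fell (36.4% and 4.55%, against 10.1% of all genes that rose and 9.93% that fell). Irf1, an interferon regulatory factor, had 323, 349 and 401 normalized counts in wild type and 814, 711 and 890.4 in Stag1-/- cells (log2 fold change 1.17 ± 0.15 (SE), adjusted p = 7.36e-05). Psmb8, an immunoproteasome subunit, rose from 25.2, 15.3 and 9.68 to 69.9, 46.7 and 67.8 and the peptide transporter gene Tap2 rose from 29.9, 45.8 and 53.2 to 107, 70.1 and 94.9. The interferon-inducible genes Irgm1 (31.8, 17.3 and 17.4 to 183, 121 and 118) and Oasl2 (19.6, 9.15 and 25.2 to 127, 100.3 and 77.7) were among the largest rises, but Oas1a fell from 87.9, 81.3 and 63.9 to 45.3, 22.4 and 22.6. B2m, the light chain of MHC class I, was at 196, 217 and 236 and 144, 188 and 239 and did not pass the test. With the number as a block, 11 rose and 2 fell of the antigen and interferon genes (50% and 9.09%, against 15.3% of all genes each way).

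Some neural genes rose and a defining one fell. Of 21 neural progenitor and neuronal genes 5 rose and 2 fell (23.8% and 9.52%, against 10.1% of all genes that rose and 9.93% that fell). One of the latter was Sox1, a factor of the neural plate on chromosome 8, which fell from 542, 361 and 417 to 57.1, 35.0 and 83.2 normalized counts (log2 fold change -2.90 ± 0.60 (SE), adjusted p = 0.004). Ina, an intermediate filament of neurons, rose from 878, 693 and 603 to 1939, 1412 and 1344, and Elavl3 by 0.82, while the progenitor genes Pax6 (74.8, 37.6 and 40.7 to 67.9, 59.4 and 95.8) and Nes (747, 698 and 675 to 991, 1147 and 817) did not pass the test (Nes rose with the block, adjusted p = 0.0675). Synapse genes gave 7 rises (36.8%) and 0 falls of 19 (median 0.47), such as Syp, synaptophysin, from 59.8, 63.0 and 74.5 to 125, 129 and 146, the postsynaptic scaffold gene Shank3 (0.79) and Nlgn2 (0.80). Of the axon guidance families, 4 of 8 ephrins rose and 0 fell, 5 of 19 semaphorins rose and 3 fell, 3 of 10 plexins and neuropilins rose and 0 fell, 1 of 10 Eph receptors rose and 1 fell, and 2 of 13 netrin and slit genes and their receptors rose and 1 fell. The last pair of families were near the shares of all genes, with 10% and 10% and with 15.4% and 7.69%. Sema3e rose from 402, 344 and 246 to 946, 949 and 878 and the semaphorin receptor gene Nrp2 by 1.26, Efna2 by 0.91 and Efnb2 by 0.72, and Sema5b fell from 519, 536 and 633 to 139, 127 and 168. The receptor gene Epha4 fell as well (-1.58). With the replicate block, 5 rose and 1 fell of the ephrins (62.5% and 12.5%, against 15.3% of all genes each way).

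Of 16 tested Hox cluster genes 0 rose and 2 fell (12.5%, against 9.93% of all genes), and 23 of 39 did not pass the filter. Of 28 tested protocadherins, clustered and non-clustered genes together, 0 rose and 1 fell (2 rose and 1 fell with the block), and the other 43 of 71, which include most of the Pcdha and Pcdhb clusters, did not pass the filter. The 2 Hox genes that fell, named after their values were seen, were near the limit of detection: Hoxa10 had 3 reads over the Stag1-/- libraries against 31 in wild type, and Hoxd1 5 against 34. Clustered histone genes gave 7 falls and 0 rises of 35, with polyA selection recovering these transcripts poorly, and the Rhox cluster on the X chromosome 2 rises of 5: Rhox6 rose from 43.0, 62.0 and 48.4 to 386, 341 and 388 normalized counts and Rhox9 from 38.3, 55.9 and 31.0 to 173, 189 and 247. Germline and meiosis genes fell more than they rose (7 and 1 of 18), led by Dazl (234, 244 and 213 to 81.7, 122 and 94.9), an RNA-binding protein gene of germ cells, and Smc1b (-0.93), the meiotic SMC1. Among other factor families, forkhead genes gave 5 rises and 4 falls of 33 (15.2% and 12.1%, near the 10.1% and 9.93% of all genes), with Foxq1 down from 302, 264 and 274 to 28.5, 21.4 and 28, and POU genes 1 rise and 3 falls of 12, with Pou4f2 (-2.71) and Pou2f3 (-2.19) down. Of the 318 tested Zfp genes 16 rose (5.03%, against 10.1% of all genes) and 29 fell (9.12%, against 9.93%). Under the block, 28 rose (8.81%) and 53 fell (16.7%) of the Zfp genes, where 15.3% of all genes went each way.

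**Figure D3:**
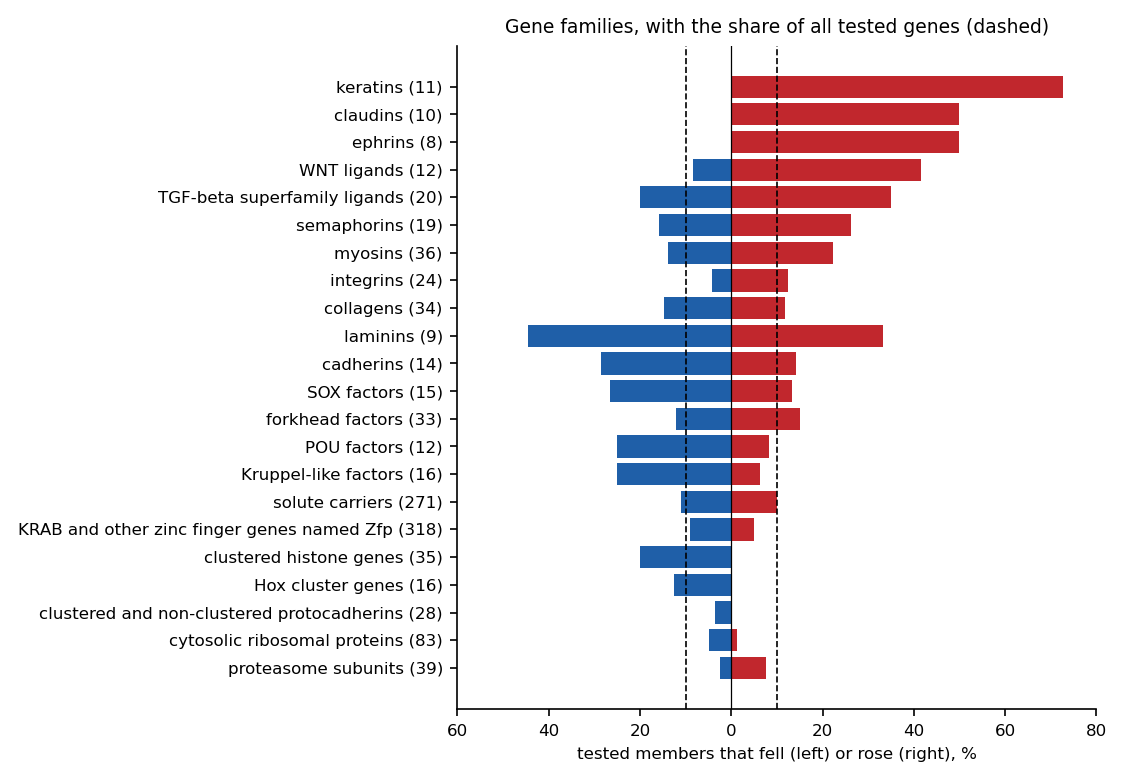
Share of tested members (x axis, percent) that fell (blue, left) or rose (red, right) in Stag1-/- cells for 22 of the 56 gene families, with the number tested in parentheses and the share of all tested genes as dashed lines. In the fit without the replicate block, keratins, claudins and ephrins have rises and no falls, while ribosomal proteins and protocadherins lie inside the dashed lines.

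The housekeeping programs are read against the 10.1% of all genes that rose and the 9.93% that fell. Of 83 cytosolic ribosomal protein genes 1 rose and 4 fell (1.20% and 4.82%), of 76 mitochondrial ones 2 and 3, of 36 complex I subunits 0 and 2, and of 25 ribosome biogenesis genes 1 and 0, or 7 rises with the block. Rpl22 fell from 6569, 6572 and 6917 to 3678, 3376 and 4806 normalized counts (log2 fold change -0.76 ± 0.12 (SE), adjusted p = 0.000493), and Rpl22l1, its paralog, rose from 2464, 2241 and 2442 to 3015, 3509 and 4617 (log2 fold change 0.64 ± 0.12 (SE), adjusted p = 0.00234). Another pair of paralogs, the kinesin heavy chains, moved apart in the same manner, with Kif5b down from 5604, 5258 and 4481 to 2559, 3052 and 2715 and Kif5c up from 368, 333 and 358 to 766, 863 and 684. Atp5b, the catalytic subunit of ATP synthase, fell from 34595, 33922 and 34393 to 18895, 17513 and 17576 (log2 fold change -0.93 ± 0.07 (SE), adjusted p = 3.86e-07), while 2 of the other 38 cytochrome oxidase and ATP synthase subunits fell and 0 rose. With the number as a block, 1 rose and 8 fell of the cytosolic ribosomal protein genes, 2 rose and 7 fell of the mitochondrial ones, 0 rose and 5 fell of the complex I subunits and 0 rose and 7 fell of the cytochrome oxidase and ATP synthase subunits, against 15.3% of all genes each way.

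In the cell cycle, 7 of 24 replication and S-phase genes fell and 1 rose (29.2% and 4.17%, against 9.93% of all genes that fell and 10.1% that rose, median -0.20, 13 fell with the replicate block), with Rrm2, a subunit of ribonucleotide reductase, down from 7458, 7434 and 8119 to 5569, 5421 and 6505 normalized counts and 5 of the 24 genes on chromosome 8. Mitosis genes gave 4 rises (20%) and 0 falls of 20, such as Top2a (0.28) and Plk1 (0.19). Of 18 p53 targets 4 fell and 1 rose (22.2% and 5.56%, 7 fell with the block): Cdkn1a, the p21 gene, fell from 731, 973 and 1149.8 to 578, 591 and 719.6, and the apoptosis gene Perp, which is also a desmosomal protein gene of epithelia, rose (0.80). In metabolism, the threonine dehydrogenase pathway on which mESCs rely fell at both steps, Tdh with -0.52 and Gcat with -0.83 (Gcat lies in the segment of chromosome 15 described with the chromosomes), and Gldc of the glycine cleavage system rose from 5224, 5698 and 5287 to 9865, 9754 and 8369.9. Glycolysis genes (1 up, 3 down of 21, or 4.76% and 14.3%) included among the falls the hexokinase-like gene Hkdc1, which went from 168, 223 and 197 to 11.8, 7.79 and 0.904. Fatty acid synthesis genes gave 3 falls of 12 (25%), with Me1, malic enzyme, from 798, 940.5 and 1053 to 361, 449.7 and 490.0, and stress response genes 2 rises and 0 falls of 20 (10%, as over all genes). Of 15 hypoxia response genes 2 rose and 2 fell (13.3% each), the latter being the collagen prolyl hydroxylase genes P4ha1 (-0.89) and P4ha2 (-1.40), and of 14 serpins 2 rose and 3 fell (14.3% and 21.4%, 2 and 5 with the block), among them the collagen chaperone gene Serpinh1 (-0.72). With the replicate block, 5 rose and 1 fell of the mitosis genes, 5 rose and 5 fell of the glycolysis genes, 0 rose and 5 fell of the fatty acid synthesis genes and 3 rose and 3 fell of the stress response genes, where 15.3% of all genes went each way.

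Transcripts of cohesin and its regulators showed small changes, and none rose. Of 16 tested, 3 fell (18.8%, against 9.93% of all genes): Stag3, the meiotic STAG gene, from 1105, 1170.2 and 1622 to 1016, 923 and 936 normalized counts (adjusted p = 0.0758), the acetyltransferase gene Esco2 (-0.33) and the loader gene Mau2 (-0.22), which lies on chromosome 8. The ring subunits Smc1a (0.12), Smc3 (-0.04) and Rad21 (-0.06), the loader gene Nipbl (-0.04), the release factor genes Wapal (-0.02), Pds5a (0.05) and Pds5b (0.11), and Cdca5 (-0.08), Esco1 (-0.16), Hdac8 (0.13) and Ctcf (-0.16) did not pass the test, and Ctcf alone of these passed it with the block (adjusted p = 0.0839).

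Chromosome 8 stood apart from the rest of the genome. Of 761 tested genes on it, 206 (27.1%) fell and 35 (4.60%) rose, with a median log2 fold change of -0.19, whereas on chromosomes 1 to 7, 9 to 19 and X the share that fell ran from 6.89% to 13.1% and the median from -0.05 to 0.04. A further measure used its 629 genes with a mean of at least 50 normalized counts. Set against the mean of the 6 libraries, their median log2 level was 0.11, 0.09 and 0.11 in the wild-type siGLO libraries and 0.11, 0.10 and 0.11 in the wild-type siStag1 libraries. It was -0.04, -0.13 and -0.10 in the Stag1-/- libraries, -0.11, -0.11 and -0.14 in the Stag2-/- siGLO libraries and -0.12, -0.15 and -0.15 in the Stag2-/- siStag1 libraries. All wild-type libraries thus lay above all libraries of both clones, and clone and genotype cannot be told apart in this. With the genes of chromosome 8 left out, 2666 genes differed, 1431 higher and 1235 lower. Of its genes, Acta1 rose against this shift, while Sox1, Col4a1, Col4a2 and Pou4f2 fell by far more than it.

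On chromosome 15 the change lay in a segment at chr15:76904078-79804766 (mm10), bounded after its values were seen by running medians of 15 neighbouring genes under -0.4. In it 33 of 57 tested genes fell and 1 rose (median -0.68), and the other 514 tested genes of the chromosome had a median of 0.04. The median of the segment was 0.02 in Stag2-/- cells against wild type and -0.51 in Stag1-/- against Stag2-/- cells. Among its genes were Kdelr3, an endoplasmic reticulum retention receptor gene, from 600.2, 673 and 784 to 162, 223 and 189.8 normalized counts, the linker histone gene H1f0, from 1396, 1240.4 and 1177 to 483, 479 and 549.6, and the kinase gene Csnk1e, from 1923, 2172 and 2466 to 1051, 957 and 1095, named after their values were seen and all without overlap. DNA copy number was not measured here, and its part in the shifts of chromosomes 8 and 15 was not tested. Of the genes in the lists for endoderm, the 2-cell-like state, actin, epithelium and keratins, none lies in the segment.

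**Figure D4:**
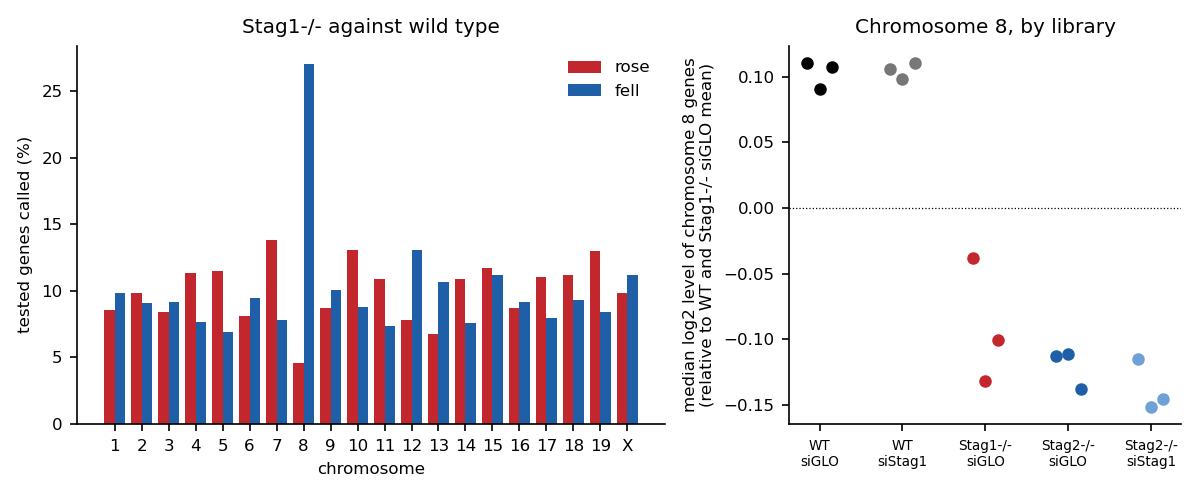
Left, share of tested genes (y axis, percent) on each chromosome that rose (red) or fell (blue) in Stag1-/- against wild-type cells. Right, median log2 level of the 629 chromosome 8 genes with a mean of at least 50 normalized counts (y axis, relative to the mean of the 6 siGLO libraries of wild type and Stag1-/-) in each library, 1 point per library. Chromosome 8 has 27.1% of its genes lower, and the 6 wild-type libraries lie near 0.1 while the 9 libraries of the 2 clones lie under 0.

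Compared directly with the Stag2-/- clone, with no wild-type library in the contrast, 3722 of 14508 genes differed (25.7%), 1844 higher (12.7%) and 1878 lower (12.9%) in Stag1-/- cells. Of the 18 endoderm genes 9 were lower and 1 higher than in Stag2-/- cells. Gata4 had 191, 117 and 122 normalized counts in Stag1-/- and 212, 149.8 and 159 in Stag2-/- cells (log2 difference -0.28 ± 0.19 (SE), adjusted p = 0.326), and Col4a1 2495, 1821 and 1710.3 and 3074, 1738 and 1739.9, neither past the test. Among the lower genes were Cubn (log2 difference -1.79 ± 0.28 (SE), adjusted p = 0.000466) and Sox17 (log2 difference -1.38 ± 0.41 (SE), adjusted p = 0.0277). The 11 tested 2-cell-like genes were all lower in Stag1-/- cells (median -3.09), which is a description, since they passed the filter through libraries in which they were higher, with Zscan4c at 83.6, 33.4 and 53.8 in Stag2-/- cells.

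Keratins differed between the clones: 8 of 11 stood above their Stag2-/- level in the Stag1 clone and 1 below it (median 2.07). Higher were also 11 of 18 epithelial genes, with 0 lower, and 10 of 12 trophoblast genes, with 0 lower. Krt7 had 70.9, 44.2 and 43.3 normalized counts in Stag2-/- cells (log2 difference 3.20 ± 0.26 (SE), adjusted p = 1.46e-06), Igf2 666, 677 and 526 (log2 difference 2.36 ± 0.15 (SE), adjusted p = 1.89e-07) and Wnt7b 92.0, 64.7 and 27.5 (log2 difference 3.26 ± 0.43 (SE), adjusted p = 9.25e-05). For actin and SRF targets 12 of 23 were higher and 1 lower, with Acta1 at 128, 136 and 82.4 in Stag2-/- cells. Hox genes went the other way, with 10 of 16 lower than in Stag2-/- cells and 0 higher, and so did formative and primed epiblast genes (8 of 13 lower and 0 higher), where Fgf5 had 42.3, 134 and 105 in Stag2-/- cells. Members low in Stag1-/- cells could pass the filter through libraries in which they were higher, so these counts are a description too. Cholesterol synthesis genes had 0 rises and 2 falls of 23 against wild type (0% and 8.70%, against 10.1% and 9.93% of all genes). They were higher than in Stag2-/- cells for 15 genes and lower for 1, and 8 of 11 LIF pathway genes were higher. Of the cholesterol genes, 5 rose and 4 fell against wild type with the block (21.7% and 17.4%, against 15.3% of all genes each way).

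Against wild-type cells with acute depletion of the same transcript by siStag1, 2326 genes differed (16.0%), 1192 higher (8.22%) and 1134 lower (7.82%) in Stag1-/- cells, a comparison in which genotype and siRNA differ together. The Stag1-/- libraries are the same as in the comparison with siGLO-treated wild type. Here 17 of 18 endoderm genes and 11 of 11 2-cell-like genes were lower in the clone, and 15 of 23 actin and SRF genes, 8 of 11 keratins and 9 of 18 epithelial genes were higher. Gata4 had 772, 843 and 989 normalized counts in wild-type siStag1 libraries, Acta1 15.2, 29.4 and 55.1 and Igf2 533, 649 and 640.4. Tbx3 lay between, at 1144, 1047 and 1318 with siStag1, 2179, 2010.0 and 2239 with siGLO and 437, 352 and 417 in the clone, and its difference between siStag1 and siGLO in wild type passed the test (log2 difference -0.87, adjusted p = 0.0225). Zscan4c had 67.6, 49.7 and 37.7 with siStag1, which did not pass the test against siGLO (log2 difference -1.31, adjusted p = 0.508), where wild-type replicate 1 was far above the other two.

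**Figure D5:**
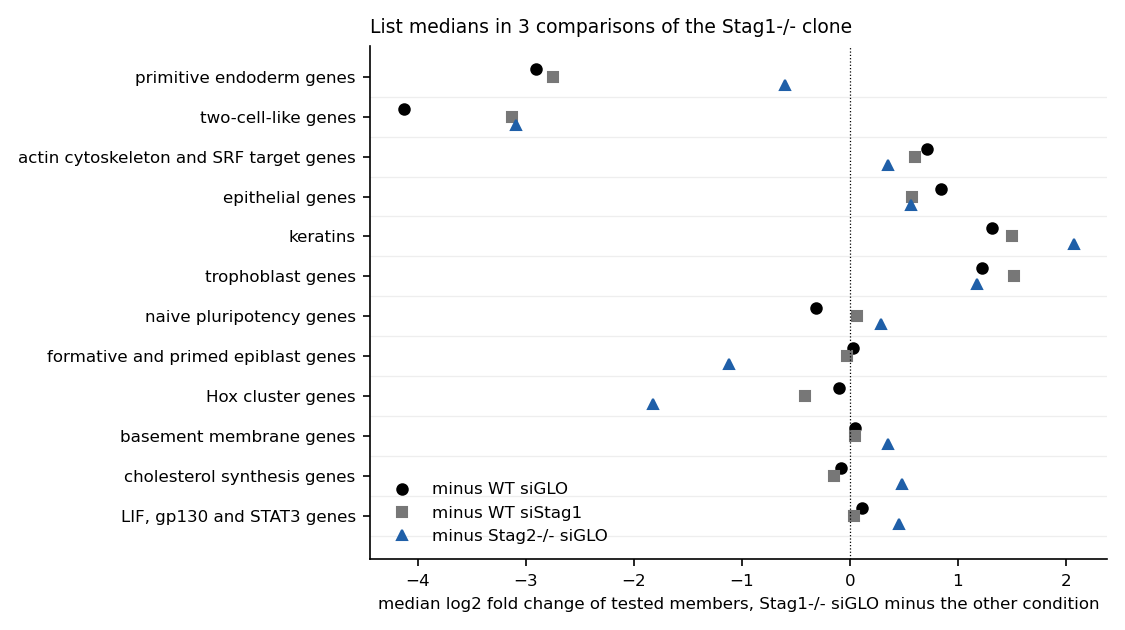
Median log2 fold change (x axis) of the tested members of 12 lists, Stag1-/- siGLO minus wild-type siGLO (circles), wild-type siStag1 (squares) and Stag2-/- siGLO (triangles). The endoderm list lies at -2.91 against siGLO-treated wild type and at -0.60 against Stag2-/- cells, the 2-cell-like list stays at or under -3.09 in all 3, and Hox genes lie at -1.82 against Stag2-/- cells. Members of the 2-cell-like and Hox lists low in Stag1-/- cells could pass the filter through other libraries, so these medians are descriptions.

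With 1 of the 6 libraries left out in turn, 30 of the genes described as higher or lower against siGLO-treated wild type were past the threshold in some fits only: Acta2, Agrn, Ankrd1, Bmp4, Cdh3, Cdkn1a, Cdx2, Cldn7, Cldn9, Cxcr4, Dusp5, Egr1, Elavl3, Esco2, Fgf4, Jak2, Lama3, Lamb3, Mau2, Otx2, Perp, Plk1, Pou5f1, Psmb8, Stag3, Tap2, Tdh, Tfcp2l1, Tgfb3 and Uhrf1. Their adjusted p under edgeR then reached at most 0.345. The others kept their call in all 6 fits. With all libraries kept and the threshold as it was, Agrn, Uhrf1, Acta2, Plk1, Esco2, Mau2 and Cdh3 lost the call under at least 1 other setting (adjusted p at most 0.215), and Lrp2, Nanog, Esrrb, Klf4, T, Gata3, Cyr61 and Nes gained it when the 6 libraries compared were fitted alone.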

How the data were processed

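PolyA RNA-seq libraries were sequenced as 150 bp paired-end reads and aligned by the authors with STAR to mm10. The deposited values are raw counts per gene symbol, with no normalization; the counting tool, its annotation and its strand setting are not given in the sources used here, so overlapping and antisense genes and near-identical copies are uncertain. Besides 23412 genes, 4 summary lines (unmapped, multimapping, without a feature and ambiguous reads) were left out of library sizes and tests.

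Counts were fitted in R 4.3.3 with edgeR 4.0.16. Low genes were removed with filterByExpr, grouped by condition (a count of 10 and a total of 15), libraries were scaled by TMM, and glmQLFit was given 1 coefficient for each of the 5 conditions across the 15 libraries, with two-sided contrasts from glmQLFTest. Of 19494 genes with a count, 14508 were tested, and a Benjamini-Hochberg adjusted p under 0.1 over all of them was a call. The SE is the log2 fold change divided by the square root of F. Normalized counts were divided by TMM-scaled library size. In the 6 libraries 3 counts, the limit of detection used, corresponded to 0.157 to 0.175 CPM, and limits and intervals (exact, 95%) cover counting error only. No 2 libraries of either group were copies of each other (chi-square per degree of freedom 7.67 to 20.6 over genes). Replicate numbers come from the sample titles, and the deviations of same-numbered wild-type and Stag1-/- libraries from their group means correlated at 0.260 to 0.364 across 11529 genes, against -0.329 to 0.0615 for other numbers, so the number was taken to pair them. The main fit left this pairing out, and it entered only as the replicate block of an alternative fit.

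The 41 gene lists and 56 families, which were drawn up from textbook knowledge and gene symbols, and the comparisons were chosen with earlier results of these data known. Genes were named by 4 rules: the 10 largest rises and falls with a mean of at least 50 normalized counts and no overlap; for each list, its defining members and up to 4 called members with the largest change and a mean of at least 20; the cohesin list; and up to 4 genes of a chromosome that stood apart. Others are named as chosen after their values were seen. A few genes that the rules select are not reported here. Lists are described by counts and medians, with no set test. Symbols were placed on mm10 with GENCODE M21 (23055 of 23412 matched). The alternatives were DESeq2 1.42.0, edgeR scaled with the size factors of DESeq2 or with total counts only, no filter, at least 10 counts in every library compared, a fit limited to the groups in question, a threshold of 0.05 on the adjusted p, the replicate number as a block, chromosome 15 left out, each library left out in turn and, chosen after seeing the data, chromosome 8 left out. Leaving out a chromosome dropped its genes from the finished fit, with no refit. The test was tried on simulated data, with the outcome not reported here. Plots were made in Python 3.11.15 with matplotlib 3.10.9.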

Additional observations from a re-analysis of the deposited data

Results flagged for a closer look

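For 8 of the named genes the change against wild-type siGLO passed the threshold of edgeR's test in both the Stag1-/- and the Stag2-/- clone, with opposite signs, and the direct contrast of the clones passed it too. The direct log2 difference, Stag1-/- minus Stag2-/-, was 3.20 for the keratin gene Krt7, 3.26 for the WNT ligand gene Wnt7b, 1.84 for the BMP ligand gene Bmp4 and 1.65 for the Polycomb gene Phf19, all of which were higher in Stag1-/- cells. It was -3.11 for the imprinted gene Mest and -1.75 for the vimentin gene Vim, both lower in Stag1-/- cells. The ribosomal protein paralogs were on this list with opposite signs, -1.05 for Rpl22 and 1.35 for Rpl22l1.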

How the results depend on the processing

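Taking the replicate number as a block raised the calls from 2907 to 4443 against wild-type siGLO (2218 higher, 2225 lower) and from 2326 to 3850 against wild-type siStag1. It brought Lrp2, Klf4, Gata3, Id3, Cyr61, Nes and Ctcf past the threshold and changed the call of no other of the 203 named genes. Fitting only the libraries compared gave 2406 genes against Stag2-/- cells in place of 3722. A demand for 10 counts in each of the 6 libraries left no 2-cell-like gene called (0), since these were low in Stag1-/- cells, and leaving out chromosome 15, where Krt7, Krt8 and Krt18 lie, left 5 keratins higher. The latter only removes the genes of that chromosome from the count. Against wild-type siGLO the number of calls ran from 2044 to 3179 over the other settings that kept all libraries.

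With 1 library left out, the calls ranged from 1915 to 2748 against wild-type siGLO, with 949 to 1411 higher and 966 to 1337 lower, from 2539 to 3522 against Stag2-/- cells and from 1464 to 2404 against wild-type siStag1. The total was lowest without wild-type replicate 2 (1915), and 966 genes were higher without Stag1-/- replicate 1. Against wild-type siStag1, 1515 genes were called without Stag1-/- replicate 1, 1464 without siStag1 replicate 2 and 1472 without siStag1 replicate 3. The members called ranged from 17 to 18 lower for primitive endoderm, 11 to 12 lower for the 2-cell-like list, 14 to 17 higher for actin and SRF targets, 9 to 12 higher for epithelial genes and 6 to 8 higher for keratins. On chromosome 8, 140 to 173 genes fell, with medians from -0.22 to -0.17. The log2 fold changes of 8 genes that were not called changed sign and ranged over -0.20 to 0.12 for Spry4, -0.034 to 0.11 for Nodal, -0.21 to 0.0066 for Ctgf, -0.28 to 0.11 for H19, -0.15 to 0.035 for Smc3, -0.13 to 0.032 for Nipbl, -0.12 to 0.059 for Wapal and -0.011 to 0.12 for Pds5a. At this depth a gene with 3 counts or fewer per library is at the limit of detection, and with 3 libraries a group an exact test of a single gene cannot go below p = 0.1. A gene that did not pass the test is not shown to be unchanged.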

Other observations

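Heparan sulfate chains hold FGF at the cell surface, and 5 of 24 genes for their core proteins and enzymes rose and 1 fell (20.8% and 4.17%, against 10.1% of all genes that rose and 9.93% that fell), or 6 and 2 with the replicate block (25% and 8.33%, against 15.3% of all genes each way). The one that fell, the sulfotransferase gene Hs3st1, went from 202, 158 and 166 normalized counts in wild type to 22.6, 14.6 and 12.7 in Stag1-/- cells (log2 fold change -3.39 ± 0.33 (SE), adjusted p = 6.03e-06). The core protein genes Sdc3 (0.98) and Gpc1 (0.91) rose. Of 12 matrix metalloproteinase genes 3 rose (25%) and 0 fell (4 and 1 with the block), among them Mmp9, from 49.6, 62.0 and 42.6 to 229, 196 and 184. In the cadherin family Cdh6 fell from 65.4, 56.9 and 58.1 to 4.92, 7.79 and 14.5 and Cdh3, P-cadherin, rose by 0.46 on the log2 scale. Both receptors for the chemokine CXCL12 changed, in opposite directions: Cxcr4 fell from 24.3, 21.4 and 42.6 to 9.84, 14.6 and 9.94, and Cxcr7, which takes the ligand up, rose from 31.8, 52.9 and 47.4 to 98.4, 115 and 117.

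Solute carriers gave 27 rises and 30 falls of 271 (9.96% and 11.1%, close to the 10.1% and 9.93% of all genes), or 41 and 47 with the block (15.1% and 17.3%, against 15.3% of all genes each way). The falls included the amino acid transporter gene Slc38a5, from 36.5, 42.7 and 34.8 to 1.97, 7.79 and 3.62 normalized counts, the metal ion transporter gene Slc39a8 (-2.36) and the phosphate transporter gene Slc34a2, with 6 reads over the Stag1-/- libraries against 176 in wild type. Among TRIM genes, 10 rose and 5 fell of 48 (20.8% and 10.4%), with Trim67 up from 97.2, 97.6 and 137 to 435, 591 and 566 and Trim52 down from 83.2, 94.6 and 114 to 11.8, 23.4 and 31.6. Of 30 Polycomb genes 2 rose and 4 fell (6.67% and 13.3%, against 10.1% and 9.93% of all genes), or 6 and 5 with the block (against 15.3% of all genes each way), among them Phf19 (0.73), an accessory gene of the complex that methylates histone H3.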
